A study of Rattus norvegicus with 8 samples.

Results

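The genes described here are 8 genes of renal gluconeogenesis and ammonia production: the enzymes Pck1, G6pc1 (G6pc in older annotation), Fbp1, Pc, Glud1 and Glul and the transporters Slc38a3 and Slc25a10. They were taken by symbol, through the RefSeq accession of each probe, and were 8 of 19865 genes tested and 14 of 41012 gene probes on the array. All 14 probes were well above background on all 8 arrays, so none was lost to the filter on dim probes. The rats were 10-week-old males of the inbred strain F344/NSlc, and the tissue was the right kidney. In 1 group (n = 4 rats) it was the residual kidney after unilateral nephrectomy, and the other group (n = 4 rats) had a sham operation. By the series text the kidneys were taken after 2 days, but the source labels name 2 days for nephrectomized and 1 day for sham samples. Nephrectomy and a difference in sampling time therefore cannot be told apart here. Whether food intake or acid-base state differed between the rats is not given in the labels.

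The kidney makes glucose from lactate, glutamine and glycerol in the proximal tubule, and it is, with the liver, the main organ able to release glucose into blood. The same cells take up glutamine, strip its nitrogen off as ammonia for excretion with acid, and pass the carbon skeleton on to glucose synthesis, so the routes share intermediates. In metabolic acidosis, rats are known to raise renal Pck1 and Slc38a3 mRNA.

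Each rat's RNA was hybridised to its own 1-colour array. The arrays lay on 2 slides, each with 2 rats of each group, rats 1 and 2 on slide 1 and rats 3 and 4 on slide 2. Values are log2 spot signals minus the log2 of the array's 75th percentile, so 0 is that percentile, and a probe's value can be compared between rats but not with another probe's. Between 54.8% (sham rat 1) and 65.5% (nephrectomized rat 4) of gene probes were well above background, and no spot was saturated. The second principal component (21.6% of the variance) set sham rat 1 apart. Of 10 proximal tubule markers, 9 had a probe, and all 9 were well above background on all arrays. Hepatocyte markers passed the filter for 0 of 5 genes. Among these, Cps1 was well above background on 4 arrays, Apoa1 on 3 and 1 Alb probe on 1. The number of arrays limits the precision of every value. The limma p-values set a difference against the spread within groups, which with 1 array per rat joins that of rats and arrays.

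The upstream sequences of Pck1 and G6pc1 are shown because both genes are textbook targets of hormone and Hnf4a signals, and regulators of these genes are described below. Each covers the 250 bases before the transcription start on the plus strand of GRCr8, from RefSeq, whose promoter table held 6 of the 8 genes. Capitals mark CGTCA, a core of the cAMP response element, in Pck1, and TATAAA, the TATA box letters, in G6pc1.
Pck1 chr3:182348322-182348571: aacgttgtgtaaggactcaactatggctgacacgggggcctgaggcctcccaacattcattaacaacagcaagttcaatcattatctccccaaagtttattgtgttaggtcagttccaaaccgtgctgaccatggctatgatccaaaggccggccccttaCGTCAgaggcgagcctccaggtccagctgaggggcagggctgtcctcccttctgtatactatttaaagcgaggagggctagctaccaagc
G6pc1 chr10:86807409-86807658: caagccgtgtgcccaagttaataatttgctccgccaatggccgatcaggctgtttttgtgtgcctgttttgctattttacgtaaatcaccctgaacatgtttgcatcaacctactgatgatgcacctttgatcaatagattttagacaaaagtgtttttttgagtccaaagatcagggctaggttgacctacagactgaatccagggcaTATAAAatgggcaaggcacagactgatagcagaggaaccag
CGTCA began 90 bases before the start of Pck1 and TATAAA 41 bases before that of G6pc1. Both strands were searched from 250 bases before to 50 after each start for these motifs, for TGTTCT (a core of the glucocorticoid response element) and for TGTTTAC (forkhead). Of 33469 promoters in the table, 21.2% held CGTCA, 14.2% TATAAA, 20.7% TGTTCT and 3.78% TGTTTAC. Slc25a10 held CGTCA, 34 bases before its start, and TGTTCT, 184 bases before it, while 1 of 2 Glul starts held CGTCA after the start. Fbp1 and Glud1 held none of these letters in this window. No motif overlapped another in the printed sequences. Pc and Slc38a3 are named only.

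After nephrectomy, Pc and Glul had the smallest p-values of the 8 genes, both with lower means than in sham rats. By their brightest probes, Pck1, G6pc1 and Fbp1 differed by under 0.05 on the log2 scale. The dimmer probes of G6pc1 and Fbp1 each gave -0.20. None of the 8 passed an adjusted p of 0.05 (0 of 8 by limma with Benjamini-Hochberg adjustment over all genes), where 3.59% of all genes tested did. At an unadjusted p under 0.05 there were 2 of 8, Pc and Glul, against 17.7% of all genes. The difference was negative for 7 genes and positive for 1, with a median log2 difference of -0.10, beside a median of -0.0004 over all genes. Array weights called 2 of the 8, where 12.7% of all genes were called. Normexp background correction called 1, beside 3.25% of all genes. An intensity trend with robust estimation also called 1, beside 4.58%. In the plot of values by rat, the groups overlap for every gene but Pc.

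**Figure D1:**
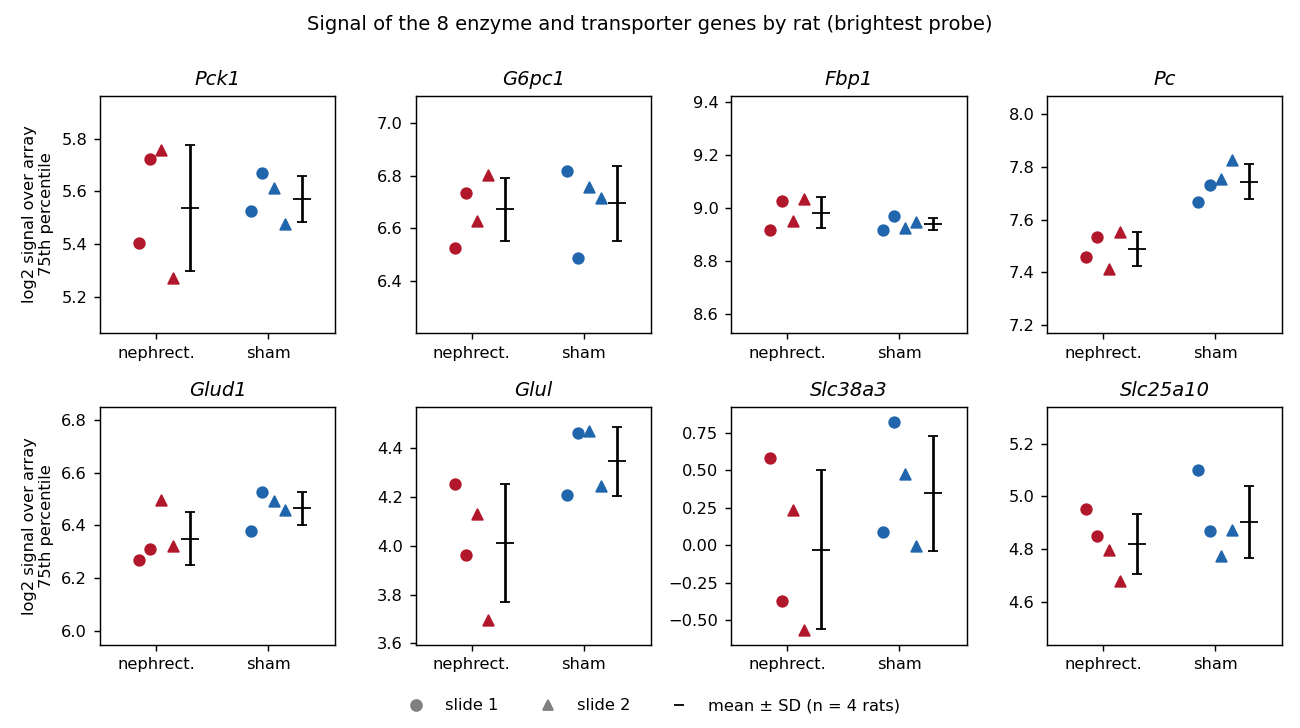
Signal of each of the 8 genes (brightest probe, log2 over the array's 75th percentile) in nephrectomized and sham rats, with slide by symbol and the mean ± SD of n = 4 rats per group beside the points. The vertical axes have their own ranges. The 4 nephrectomized rats lie below the 4 sham rats for Pc, from 7.41 to 7.55 against 7.66 to 7.83, and the groups overlap for the other 7 genes.

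Pc, pyruvate carboxylase, makes oxaloacetate from pyruvate in mitochondria and starts gluconeogenesis from lactate. It measured 7.46, 7.53, 7.41 and 7.55 in nephrectomized rats 1 to 4, against 7.66, 7.73, 7.75 and 7.83 in sham rats 1 to 4. Every nephrectomized rat was below every sham rat, by a narrow margin, which was true in this direction of 5.07% of all genes. The log2 difference was -0.25 (standard error, SE, 0.06, 95% interval -0.40 to -0.11), or 0.839 of the sham level, with an adjusted p = 0.0679 by limma, so Pc did not pass. Within slide 1 the difference was -0.20 and within slide 2 it was -0.31. Of its variance over the 8 rats, 83.4% lay between the groups, the highest share among the 8 genes.

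The call on Pc differed between settings. It passed with normexp (adjusted p = 0.0448), with an intensity trend and robust estimation (adjusted p = 0.0175) and with array weights (adjusted p = 0.0217). It did not pass with any single rat left out (adjusted p 0.0637 to 0.178, limma) or with slide as a block (adjusted p = 0.0728). The difference stayed between -0.31 and -0.20 over all of these.

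**Figure D2:**
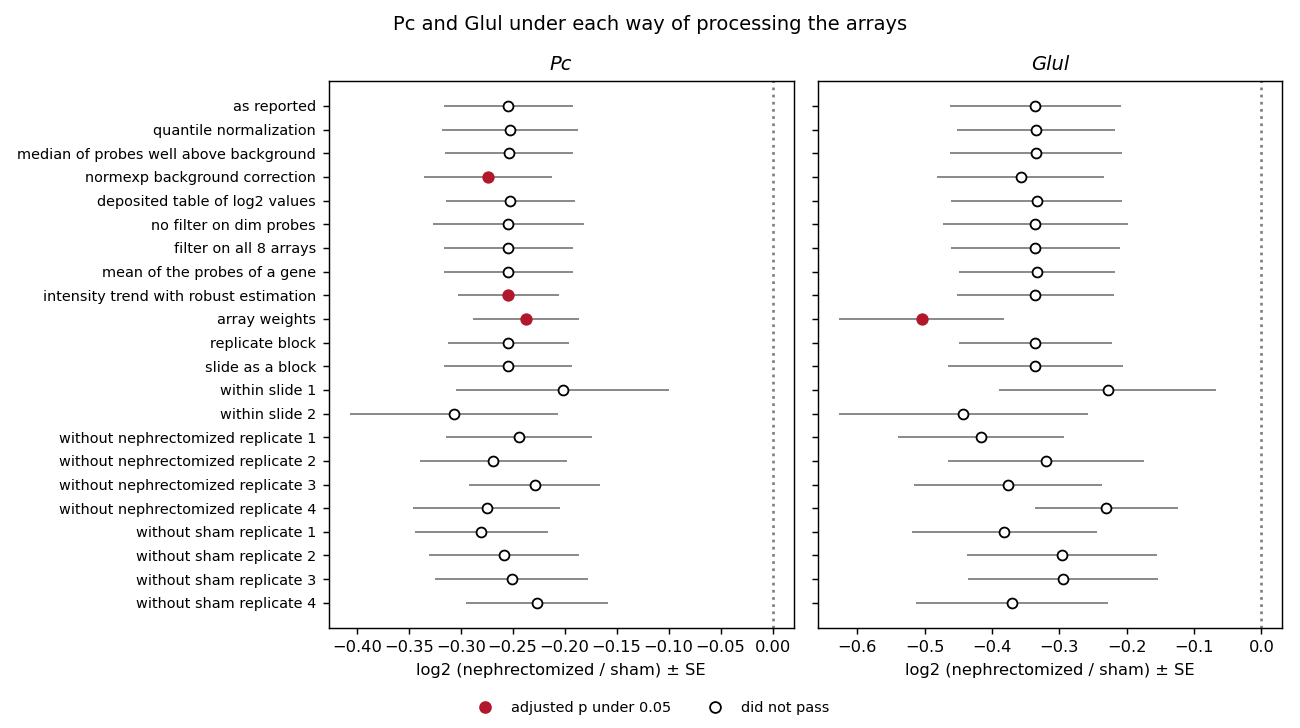
Difference between groups for Pc and Glul (log2 nephrectomized over sham ± SE) under the reported setting and 21 others, with filled points for an adjusted p under 0.05. All points lie below 0. Filled points appear for Pc with normexp, the intensity trend and array weights, and for Glul with array weights.

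Pck1, phosphoenolpyruvate carboxykinase, turns oxaloacetate into phosphoenolpyruvate and is the step that hormones and acid regulate most. Its signal was 5.40, 5.72, 5.76 and 5.27 in nephrectomized rats 1 to 4, and 5.53, 5.67, 5.61 and 5.48 in sham rats 1 to 4. The nephrectomized rats spread on both sides of the sham rats, with an SD of 0.24 against 0.09. The log2 difference was -0.03 (SE 0.12, 95% interval -0.30 to 0.23, adjusted p = 0.917 by limma). A second Pck1 probe, printed in 10 spots on each array, gave -0.02 and placed the nephrectomized rats likewise, 2 above all sham rats and 2 below them.

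Fbp1, fructose-1,6-bisphosphatase, removes a phosphate that glycolysis added, a step only gluconeogenesis takes. It had values of 8.92, 9.03, 8.95 and 9.03 in nephrectomized rats, against 8.92, 8.97, 8.92 and 8.95 in sham rats. These ranges overlapped, and the log2 difference was 0.04 (SE 0.05, 95% interval -0.08 to 0.17, adjusted p = 0.742 by limma). The probes of Fbp1 disagreed in sign: the dimmer one gave -0.20, with nephrectomized rats between 5.50 and 6.20 and sham rats between 5.80 and 6.13. The brightest probe's interval is the narrowest of the 8 genes.

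G6pc1, glucose-6-phosphatase, frees glucose from its phosphate so that it can leave the cell. Nephrectomized rats measured 6.53, 6.73, 6.63 and 6.80, and sham rats 6.82, 6.49, 6.76 and 6.72, with full overlap. The log2 difference was -0.02 (SE 0.09, 95% interval -0.23 to 0.19, adjusted p = 0.932 by limma). Its dimmer probe gave -0.20 (adjusted p = 0.530), with nephrectomized rat 1 the lowest at 2.19.

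Slc25a10 carries dicarboxylates such as malate out of mitochondria in exchange for phosphate. Its values were 4.95, 4.85, 4.80 and 4.68 in nephrectomized rats, and 5.10, 4.87, 4.77 and 4.87 in sham rats. The groups overlapped, and the log2 difference was -0.08 (SE 0.09, 95% interval -0.29 to 0.12, adjusted p = 0.688 by limma). It was -0.02 without sham rat 1, -0.04 without nephrectomized rat 4 and -0.13 without nephrectomized rat 1 or sham rat 3. Of its variance, 47.1% lay between the slides and 12.6% between the groups, the highest share for slide among the 8 genes.

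Glud1, glutamate dehydrogenase, releases ammonia from glutamate in mitochondria. It measured 6.27, 6.31, 6.50 and 6.32 in nephrectomized rats 1 to 4, against 6.38, 6.53, 6.49 and 6.46 in sham rats 1 to 4. Nephrectomized rats 1, 2 and 4 were below all sham rats and rat 3 was within their range. The log2 difference was -0.11 (SE 0.07, 95% interval -0.27 to 0.04, adjusted p = 0.446 by limma). The other 2 probes of Glud1 gave -0.16 and -0.20, with rat 3 again the highest nephrectomized rat.

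Glul, glutamine synthetase, runs the opposite way and binds ammonia to glutamate. Its brightest probe read 4.25, 3.96, 4.13 and 3.70 in nephrectomized rats 1 to 4, against 4.21, 4.46, 4.47 and 4.24 in sham rats 1 to 4. Nephrectomized rats 2, 3 and 4 were below every sham rat, and rat 1 was within the sham range. The log2 difference was -0.34 (SE 0.13, 95% interval -0.63 to -0.05), or 0.793 of the sham level, with an adjusted p = 0.213 by limma. The second probe gave -0.33. With array weights the difference was -0.50 and passed (adjusted p = 0.0324), under a setting that called 2515 genes in all. Nephrectomized rat 4 was 63.7% of the sham mean and rat 1 was 93.7%.

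Slc38a3, also called Snat3, brings glutamine into proximal tubule cells across the basolateral membrane. Its signal was 0.58, -0.37, 0.24 and -0.56 in nephrectomized rats, and 0.09, 0.82, 0.48 and -0.01 in sham rats. Rats 2 and 4 of the nephrectomized group were the lowest of all, and the groups overlapped. The log2 difference was -0.37 (SE 0.28, adjusted p = 0.542 by limma), and its 95% interval, from -1.01 to 0.26, is the widest of the 8 genes. The difference was -0.20 without nephrectomized rat 4, -0.21 without sham rat 2, -0.58 without nephrectomized rat 1 and -0.68 with array weights, and passed in none of these. Its SD over the 8 rats was 0.47, against a median of 0.16 over all genes tested.

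When every probe was fitted on its own, 0 of the 14 probes passed (limma with Benjamini-Hochberg adjustment over probes), where 3.24% of all 23982 probes did. Both Glul probes and the Pc probe had 95% intervals below 0. An interval that leaves out 0 is the same as an unadjusted p under 0.05 by limma. Of all genes, 17.7% had such a p in either direction, and the share over all probes was not counted.

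**Figure D3:**
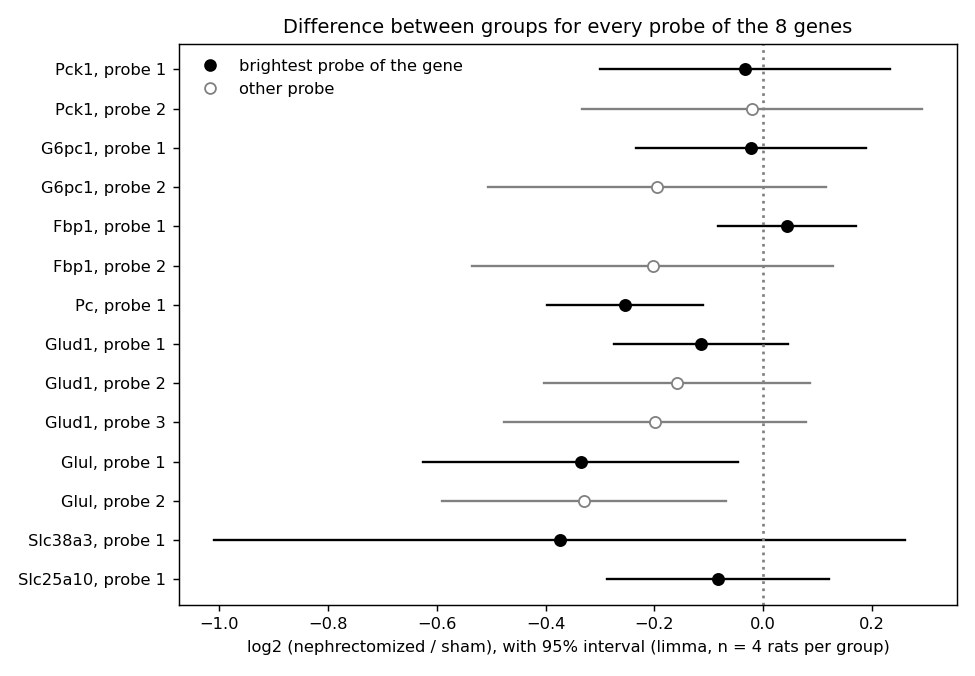
Log2 difference between nephrectomized and sham rats with its 95% interval (limma, n = 4 rats per group) for each of the 14 probes, brightest probe of a gene in black and other probes in grey. The intervals of Pc and of both Glul probes lie below 0, and the other 11 cross it. Of all genes tested, 17.7% had an unadjusted p under 0.05 (limma), the same bound as these intervals.

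Among the 8 genes, Glul and Slc38a3 ran most closely together over the 8 rats (r = 0.898, exact permutation p = 0.0025, adjusted p = 0.0701 over 28 pairs). Spearman's rho was 0.833 (exact permutation p = 0.0154, adjusted p = 0.431). Without the 2 rats farthest from the Glul median, r was lower, at 0.689 (exact permutation p = 0.147). That value comes from fewer rats and a narrower range of Glul. Within the nephrectomized group r was 0.948 and within the sham group 0.902. Within slide 1 r was 0.953 and within slide 2 0.934, with 4 rats in each group and slide. No pair passed the adjustment (0 of 28 by exact permutation tests, 3 at an unadjusted p under 0.05), and 15 of the 28 had a positive r. Of the other 2, Fbp1 with Glul had r = -0.757 (exact permutation p = 0.0313, adjusted p = 0.355). That r was 0.177 without the 2 rats farthest from the Fbp1 median. G6pc1 with Slc38a3 had r = -0.744 (exact permutation p = 0.038, adjusted p = 0.355). That r was -0.328 without the 2 rats farthest from the G6pc1 median.

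Slc7a13, an acidic amino acid transporter of the late proximal tubule, was singled out from the marker lists after its values were seen, so its likeness to these genes is a description with no test. It measured 4.25, 2.99, 3.77 and 2.72 in nephrectomized rats 1 to 4, against 3.87, 4.82, 4.93 and 4.24 in sham rats 1 to 4. Its rats stood in the same order as for Glul over the 8 rats, with r = 0.977, and 0.981 without the 2 rats farthest from the Slc7a13 median. Within the slides r was 0.991 and 0.995. With Slc38a3 r was 0.903 and Spearman's rho 0.833, but r was 0.674 without the 2 farthest rats. In rat kidney, Glul and Slc38a3 are known from the same late segment.

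**Figure D4:**
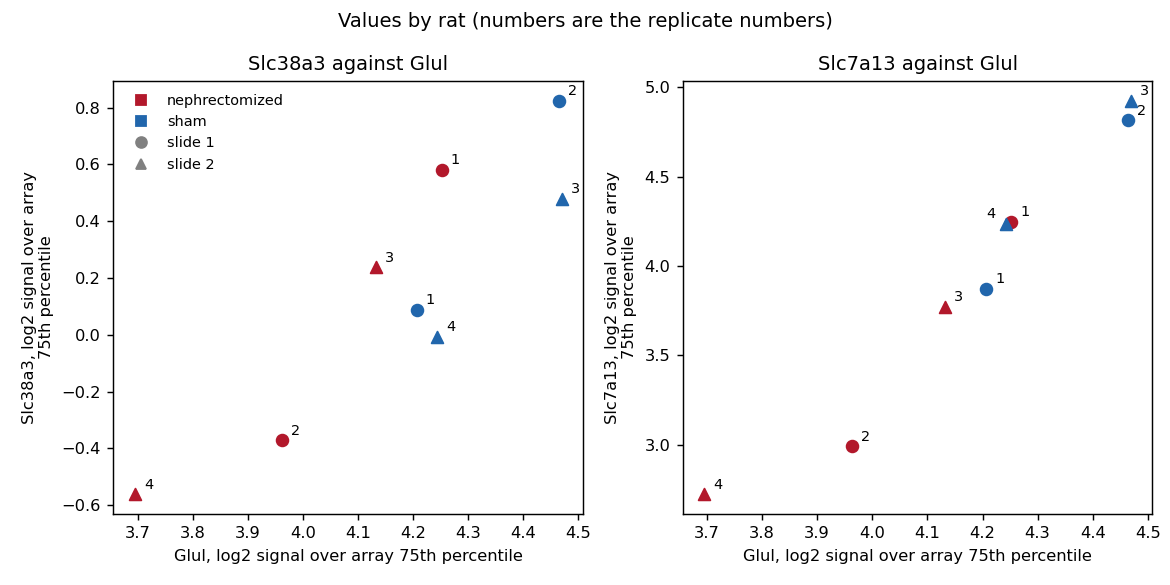
Slc38a3 (left) and Slc7a13 (right) against Glul, each as log2 signal over the array's 75th percentile, for 4 nephrectomized and 4 sham rats labelled by replicate number, with slide by symbol. Nephrectomized rats 2 and 4 sit lowest on all 3 genes, and sham rats 2 and 3 sit highest on Glul and Slc7a13.

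The difference of Slc7a13 itself was -1.03 on the log2 scale (SE of 0.37, adjusted p = 0.182 by limma). Over all 9 measured proximal tubule markers, 7 had negative differences, the median was -0.11, and 1 was called lower, where 1.02% of all genes were. It was Miox, a myo-inositol oxygenase, which fell by 0.35 on the log2 scale (SE of 0.06, adjusted p = 0.0244 by limma). Taken singly, the groups did not overlap for 1 of the 9 markers, Miox, downward, where 5.07% of all genes did so. The markers' summed linear signal, in units of the array's 75th percentile, was 1090 to 1150 in nephrectomized rats. It was 1160 to 1220 in sham rats, without overlap. Bright probes weigh most in this sum, Miox is part of it, and the sum was not taken without Miox. Its lack of overlap therefore cannot be carried over to the other markers, whose groups overlapped for each. The part of these marker differences in the differences of the 8 genes was not tested. In whole tissue, fewer cells of a type and less RNA per cell cannot be told apart.

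For each of the 8 genes, the measured gene with the most similar values over the 8 rats was sought among 9304 others well above background everywhere. Glul was nearest to Slco1a1, an organic anion transporter (r = 0.992), and Slc38a3 to Akr7a3, an aldo-keto reductase (r = 0.971). Slco1a1 had a log2 difference of -1.04 (adjusted p = 0.185 by limma). The nearest to Pc was Agap1 (r = 0.962), to Glud1 Fahd2a (r = 0.989), to G6pc1 Vegfd (r = 0.987), to Fbp1 Calr3 (r = 0.971), to Slc25a10 RT1-DMa (r = 0.967) and to Pck1 Akirin1 (r = 0.911). Each r is the highest of many and a description only.

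The list of other gluconeogenic enzymes and substrate entry, which includes several enzymes shared with glycolysis, was mostly positive in sign, with 1 call. Of its 24 measured genes, 19 had positive differences, beside 9909 of all 19865 genes. The median log2 difference of the 24 was 0.06, and 1 rose, where 2.57% of all genes did. The groups did not overlap for 4 of them upward and 2 downward, against 7.56% and 5.07% of all genes. Ldha, the lactate dehydrogenase A subunit that interconverts lactate and pyruvate, measured 2.75, 2.69, 2.72 and 2.76 in nephrectomized rats, against 2.47, 2.50, 2.40 and 2.43 in sham rats. It rose by 0.28 on the log2 scale (SE of 0.05, adjusted p = 0.0275 by limma), with every nephrectomized rat above every sham rat. The call was lost without nephrectomized rat 1, 2 or 4 or sham rat 2, 3 or 4 (adjusted p 0.0593 to 0.104). Gapdh and Gpi, enzymes that glycolysis and gluconeogenesis share, had differences of 0.25 (adjusted p = 0.0684) and 0.19 (adjusted p = 0.110, limma), also without overlap. None of these 3 enzymes works in 1 direction only. Khk, the ketohexokinase that phosphorylates fructose, was at -0.23 (adjusted p = 0.114, limma). Khk was named after its values were seen.

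The list of glycolytic genes set against gluconeogenesis had 1 call in 10 measured genes, upward, where 2.57% of all genes were called higher. That call rests on a dim probe. Of the 10 genes 8 had positive and 2 negative differences, with a median log2 difference of 0.18, and the groups did not overlap for 3 of them, all upward, against 7.56% of all genes. Pfkfb1, whose bifunctional enzyme makes and breaks the fructose 2,6-bisphosphate that inhibits Fbp1, measured -3.04, -2.96, -3.09 and -2.87 in nephrectomized rats, against -3.96, -4.46, -4.25 and -4.37 in sham rats. The probe was well above background on 4 of 4 nephrectomized but on 1 of 4 sham arrays, so it passed the filter through the nephrectomized group alone, and its sham level is poorly measured. The groups did not overlap, and the measured values rose by 1.27 on the log2 scale (SE of 0.11, adjusted p = 0.00108 by limma). With normexp the difference was 0.58, and with the filter on all 8 arrays the probe was not tested and the list had 0 calls. Hk1, a hexokinase, was at 0.27 (adjusted p = 0.0597) and Pfkm, a phosphofructokinase, at 0.22 (adjusted p = 0.127, limma), each without overlap. The 2 negative genes, named after their values were seen, were Pklr, the pyruvate kinase of liver and kidney, at -0.31 (adjusted p = 0.129), and Gckr, the glucokinase regulator, at -0.29 (adjusted p = 0.185, limma). With array weights Pklr was called, in the negative direction.

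Among 20 measured genes of glutamine and ammonia handling other than the 8, 1 fell, where 1.02% of all genes did, and none rose. The groups did not overlap for 1 upward and 2 downward, near the share of all genes (7.56% and 5.07%). Gpt, alanine aminotransferase, which moves nitrogen from alanine onto glutamate, measured -4.17, -4.99, -4.41 and -4.42 in nephrectomized rats, against -3.58, -3.43, -3.76 and -3.35 in sham rats. This probe too was dim, well above background on 3 of 4 nephrectomized and 4 of 4 sham arrays, so it passed the filter through the sham group alone. Its measured values fell by 0.97 on the log2 scale (SE of 0.17, adjusted p = 0.0202 by limma), without overlap. With the filter on all 8 arrays it was not tested and the list had 0 calls, and with normexp the difference was -0.20 and did not pass (adjusted p = 0.277, limma). The call was also lost without nephrectomized rat 4 or sham rat 2 or 4 (adjusted p 0.0591 to 0.0656).

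Prodh, proline dehydrogenase, which feeds proline into glutamate, was at -0.42 (SE 0.10, adjusted p = 0.0724 by limma) and its groups did not overlap. Prodh passed in 5 of 21 alternative settings, among them slide as a block (adjusted p = 0.00993) and normexp (adjusted p = 0.0352, limma). Ggt1, the brush border enzyme gamma-glutamyltransferase, was at -0.42 (adjusted p = 0.122, limma), with nephrectomized rat 1 inside the sham range.

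**Figure D5:**
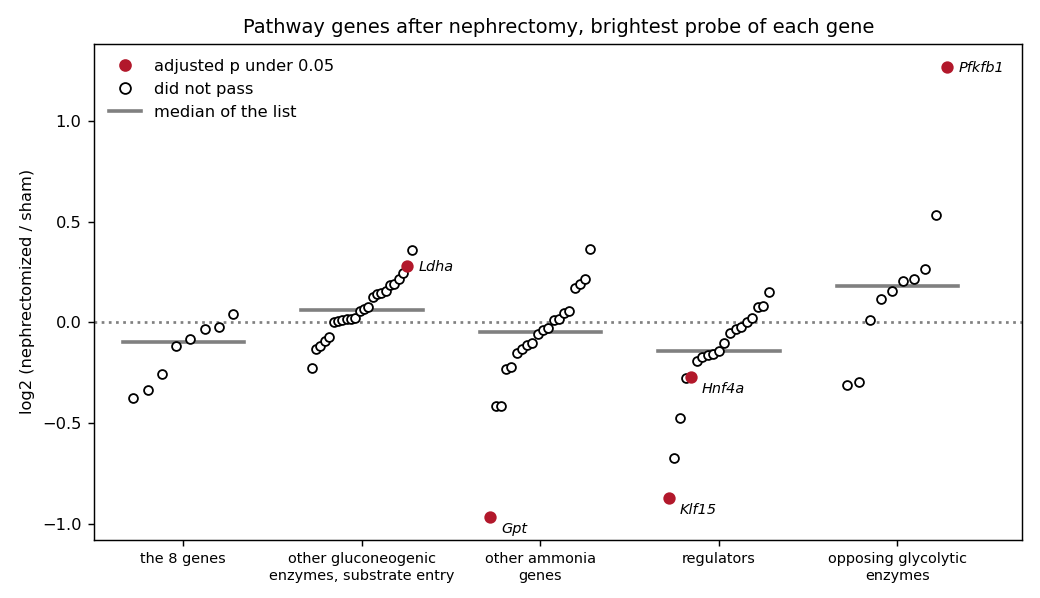
Log2 difference between nephrectomized and sham rats for each measured gene of the 8 described here and of 4 further lists, with filled points for an adjusted p under 0.05 (limma) and a grey line at each list's median. The 5 filled points are Ldha, Gpt, Hnf4a, Klf15 and Pfkfb1, and none is among the 8 genes.

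Among 19 measured regulators of gluconeogenesis, 14 had negative differences, with a median log2 difference of -0.14, and 2 fell, beside 1.02% of all genes. The groups did not overlap for 4 of the 19, all downward, against 5.07% of all genes. Klf15, a transcription factor that in mouse liver promotes amino acid breakdown and gluconeogenesis and that glucocorticoids induce, measured 3.74, 3.66, 3.67 and 3.68 in nephrectomized rats, against 4.42, 4.59, 4.71 and 4.52 in sham rats. Its groups were far apart, and it fell by 0.87 on the log2 scale (SE of 0.07, adjusted p = 0.00108 by limma), to 0.547 of the sham level. Klf15 kept its call without any single rat (adjusted p 0.00205 to 0.00669, limma).

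Hnf4a, a nuclear receptor of proximal tubule and liver that binds the Pck1 and G6pc1 promoters, measured 4.22, 4.19, 4.23 and 4.20 in nephrectomized rats, against 4.48, 4.49, 4.47 and 4.47 in sham rats. The rats of a group lay within a narrow band, and it fell by 0.27 on the log2 scale (SE of 0.05, adjusted p = 0.0236 by limma). Its other 2 probes gave -0.29 (adjusted p = 0.126) and -0.37 (adjusted p = 0.307, limma), so neither passed. The call was lost without nephrectomized rat 2 or 4 or sham rat 2, 3 or 4 (adjusted p 0.0677 to 0.0877). With the mean of its probes Hnf4a did not pass either (adjusted p = 0.0682, limma).

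Cebpb, a factor that binds the Pck1 promoter, was at -0.67 (SE 0.15, adjusted p = 0.0545 by limma) without overlap, and it passed with slide as a block (adjusted p = 0.0175). The next were named after their values were seen. Cryz, an RNA-binding quinone reductase, was at -0.47 (adjusted p = 0.0937, limma), also without overlap. Ppargc1a, a coactivator of gluconeogenic genes, was at -0.19 (adjusted p = 0.549), and Nr3c1, the glucocorticoid receptor, was at 0.002 (adjusted p = 0.996, limma). Pck1 and G6pc1, textbook targets of Hnf4a, had the differences of -0.03 and -0.02 given above for their brightest probes.

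Without sham rat 1, the array set apart by the second component, 0 of the 8 genes passed and the difference of Pc was -0.28 (adjusted p = 0.0637 by limma). Ldha, Hnf4a and Klf15 kept their calls without it. Gpt and Pfkfb1 did too, but their dim probes passed the filter only through the group where they were higher. Gapdh (gluconeogenic), Slc38a1 (ammonia) and Hk1 (glycolytic) were added among the genes of their lists.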

How the data were processed

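The authors extracted the scans of the 8 Agilent arrays (Cy3, 1 per rat) with Agilent Feature Extraction 10.5.1.1, per the file headers. The deposited scanner files give a processed intensity per spot, from which background and spatial trend were removed, with no scaling across arrays. A further deposited table holds log2 values, equal to the log2 intensity minus the 75th percentile of its array and centred per probe on the median (r = 0.9999 over 30409 gene probes, across probes; column medians -0.0171 to 0.015). It served as an alternative.

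Control and outlier spots were left out, log2 intensities were averaged over the spots of a probe, and each array's 75th percentile was subtracted. A probe was kept (23982 of 41012) if it was well above background on every array of 1 or both groups. RefSeq accessions gave a symbol to 18713 probes, and the other 22299 kept their accession. The brightest probe stood for each gene (19865 genes). The comparison used lmFit and eBayes of limma 3.58.1 (R 4.3.3) without covariates, two-sided, with p-values adjusted over all genes by Benjamini-Hochberg (threshold 0.05), and was tested on simulated data.

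The 8 genes, the pathway and marker lists and the tests were chosen with earlier results of these data known. Named genes are the 8 members, every called gene and otherwise the 3 with the smallest p of each pathway list, and the most similar gene of each member. Some list genes are not reported here.

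Alternatives were quantile normalization, scaling to the median of the brighter probes (well above background on all 8 arrays), the deposited table, normexp (offset 50) on the median spot intensity, leaving out the dim-probe filter or requiring all 8 arrays, averaging the probes of a gene, array weights, an intensity trend with robust estimation, the replicate number or slide as a block, each slide alone and each rat left out. Same-numbered rats of the 2 groups correlated at -0.0176 to 0.103 in their deviations from the group means, so the numbers were not taken as pairs.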

Additional observations from a re-analysis of the deposited data

How the results depend on the processing

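Of the 8 genes, 0 passed in the reported setting, and limma called 1 with normexp, 1 with the intensity trend and robust estimation, 2 with array weights and 0 under the others, including 0 to 0 with each rat left out; on single probes normexp called 1. Array weights called 2515 genes in all, the intensity trend 909, normexp 646, no filter 282, the replicate block 296, slide 1 alone 0 and slide 2 alone 141, against 714. Signs turned for Fbp1 with quantile normalization (-0.0312) and the mean of its probes (-0.0797), for G6pc1 with array weights (0.0416), without nephrectomized rat 1 and without sham rat 1 (-0.0906 to 0.0264 over the rats left out), and for Pck1 without nephrectomized rat 1 or 4 (-0.106 to 0.0555). None of these values passed.

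Calls among other gluconeogenic genes were 1 as reported, 0 without the filter, 3 with the trend, 4 with array weights, 0 with the replicate block, 0 on slide 1, 0 on slide 2 and 0 to 2 with a rat left out. Ammonia genes had 1 as reported, 0 without the filter, 0 with the filter on all 8 arrays, 2 with the mean of probes, 2 with the trend, 6 with array weights, 0 with the replicate block, 2 with slide as a block, 0 on slide 1, 0 on slide 2 and 0 to 2 with a rat left out. Regulators had 2 as reported, 3 (Cebpb added) with quantile normalization, the filter on all 8 arrays, the trend or slide as a block, 1 without the filter, 1 with the mean of probes, 4 with array weights, 1 with the replicate block, 0 on slide 1, 0 on slide 2 and 1 to 3 with a rat left out. Opposing glycolytic genes had 1 as reported, 0 with the filter on all 8 arrays (Pfkfb1 and, among ammonia genes, Gpt were not tested there), 2 with the trend, 4 with array weights, 0 on slide 1 and 1 to 2 with a rat left out. With normexp the ammonia list again had 1 call, but it was Prodh (adjusted p = 0.0352, limma) and not Gpt. A slide alone holds fewer rats, and leaving out the filter adds genes to the adjustment. The cause of these changes in the counts was not tested. The pairing by replicate number rests on no label, and the block with it ended the calls of Ldha, Gpt and Hnf4a. The 8 genes had no call in the reported setting that the block could end. No correlation between members passed the adjustment under quantile normalization or normexp (0 each). Dim probes, those of Gpt and Pfkfb1, are limited by signal over background.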
